A study of Mus musculus with 4 samples.

Results

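Rnf169 and Ankib1 are the host genes of 4 of the 1046 circular RNAs (circRNAs) listed in mouse heart, and those 4 held 89 of 7303 back-splice reads. A circRNA forms when the end of a downstream exon is joined to the start of an upstream one, and a back-splice read crosses that joint. The 4 circRNAs were taken by host gene label. The pair of hosts was itself chosen by measured values, namely the back-splice reads, the non-junction reads and the circular share in sham against ischemia/reperfusion (I/R), so differences between the groups are given for these circRNAs as descriptions and without a p-value. Hearts of C57BL/6 mice were sampled as total RNA in 4 libraries. The sham group (sham 1 and sham 2) had surgery without ischemia, and the I/R group (I/R 3 and I/R 4) is a model of myocardial injury in which a stretch of heart muscle loses its blood supply for a time and then regains it. The labels give no age, sex, length of ischemia or time after reperfusion, nor do they say whether each library is a different mouse, so the spread within a group may be technical only.

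Both proteins act in the ubiquitin system, in which a ligase directs the small protein ubiquitin from a carrier enzyme (E2) to a target. RNF169 is a RING finger protein related to RNF168. It is recruited to ubiquitin-marked chromatin around DNA double-strand breaks, where it competes with other readers of that mark. ANKIB1 carries ankyrin repeats and belongs to the RING-between-RING (RBR) ligases, which take ubiquitin onto their own catalytic cysteine before passing it on. A circRNA made of such exons does not by itself encode the full protein, and the reads counted here say nothing of protein level.

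Rnf169 had 3 circRNAs and Ankib1 had 1, all on the minus strand and all labelled exonic. The leading Rnf169 circRNA (chromosome 7, 107083672 to 107104050, build mm9; circBase mmu_circ_0001605) had 62 reads and was listed in all 4 libraries. The Ankib1 circRNA (chromosome 5, 3747021 to 3772787, mm9; mmu_circ_0001311) had 23 reads and was also listed in all 4. The remaining Rnf169 circRNAs had 2 reads each, in 1 sham library each. One ran from 107072806 to 107104050 (mmu_circ_0013703, sham 1) and one from 107072806 to 107091615 (no circBase identifier, sham 2). The files list no count below 2, so a 0 here can stand for 1 read.

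The exons were identified by distance, since the annotation used here (GENCODE M21) is on GRCm38 and the files are on mm9. In Rnf169-201, which has 6 exons, only 1 pair of exon boundaries lay as far apart as the ends of the leading circRNA, from exon 2 to exon 4. In Ankib1-201, which has 20 exons, the match was exon 2 to exon 5. The Rnf169 circle holds 3 exons and 340 nt if its introns are removed, and the Ankib1 circle 4 exons and 873 nt. Over the 862 of 951 exonic circRNAs with a single such match, the medians were 3 exons and 470.5 nt. Both circles begin at exon 2 of their transcripts, as did 39.0% of the 862 matched circRNAs and 52.7% of the 129 of them that had at least 10 reads over 2 or more libraries. The intron before exon 2 was 24431 bp in Rnf169 and 29809 bp in Ankib1, longer than 95.8% and 96.6% of 209529 introns of protein-coding transcripts, against a median of 11397 bp upstream of the 862 and 17439 bp upstream of the 129. Those before exon 2 are first introns, while the 209529 are introns of every position, and first introns were not compared separately. The introns after the circles were 7969 bp and 12836 bp.

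The exons of the leading Rnf169 circle are shown because their order defines it: the capitals at the end of exon 4 are followed in the circle by the capitals at the start of exon 2. All 3 exons lie within the coding region, and the sequences are those of the GENCODE transcript on GRCm38 (minus strand).
Rnf169 exon 2: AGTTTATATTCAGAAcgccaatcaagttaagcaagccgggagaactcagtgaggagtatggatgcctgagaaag
Rnf169 exon 3: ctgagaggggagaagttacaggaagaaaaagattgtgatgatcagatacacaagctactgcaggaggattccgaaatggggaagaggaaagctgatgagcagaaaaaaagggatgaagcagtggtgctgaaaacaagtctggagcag
Rnf169 exon 4: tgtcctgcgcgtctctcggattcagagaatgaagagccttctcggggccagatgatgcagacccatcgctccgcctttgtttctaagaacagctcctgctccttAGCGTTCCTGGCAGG
The 30-nt window across this joint, 15 nt from each side, occurred in 0 of 141767 annotated transcripts on either strand. The host's start codon lies outside these exons.

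The Ankib1 circle differs from the Rnf169 circle in holding the host's start codon. The last exon of the circle is shown with the 15 bases before the back-splice joint in capitals, and exon 2 from its start codon, in capitals, onwards. The 83 nt of exon 2 that precede the start codon belong to the 5′ untranslated region, follow the joint in the circle and are not printed.
Ankib1 exon 5: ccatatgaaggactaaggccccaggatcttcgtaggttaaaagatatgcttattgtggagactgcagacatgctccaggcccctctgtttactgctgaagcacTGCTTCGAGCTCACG
Ankib1 exon 2, coding part: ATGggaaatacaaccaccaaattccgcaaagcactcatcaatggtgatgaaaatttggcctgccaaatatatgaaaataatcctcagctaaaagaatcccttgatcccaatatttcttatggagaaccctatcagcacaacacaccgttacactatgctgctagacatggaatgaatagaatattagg
The length of 873 nt is a multiple of 3 (remainder 0), while the 340 nt of the Rnf169 circle leave a remainder of 1. Read from the start codon around the Ankib1 circle, the frame passed the back-splice joint and met a stop after 288 codons. This describes the letters only, and translation was not measured. The 30-nt window across the Ankib1 joint also occurred in 0 of 141767 transcripts.

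The 2 rarer Rnf169 circRNAs share their downstream boundary, and that boundary matched no annotated exon end. Their upstream boundaries matched exon 2 (107104050) and, 12435 bp further downstream, exon 3 (107091615). The shared boundary lay 10866 bp past the end of exon 4, while exon 6, the last, runs from 8679 to 14908 bp past it. If the builds have the same spacing here, it falls at nt 2188 of the 6230 nt of exon 6 and 1006 bp past the stop codon, in the 3′ untranslated region. With 2 reads each, these circRNAs carry no more than a listing.

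**Figure D1:**
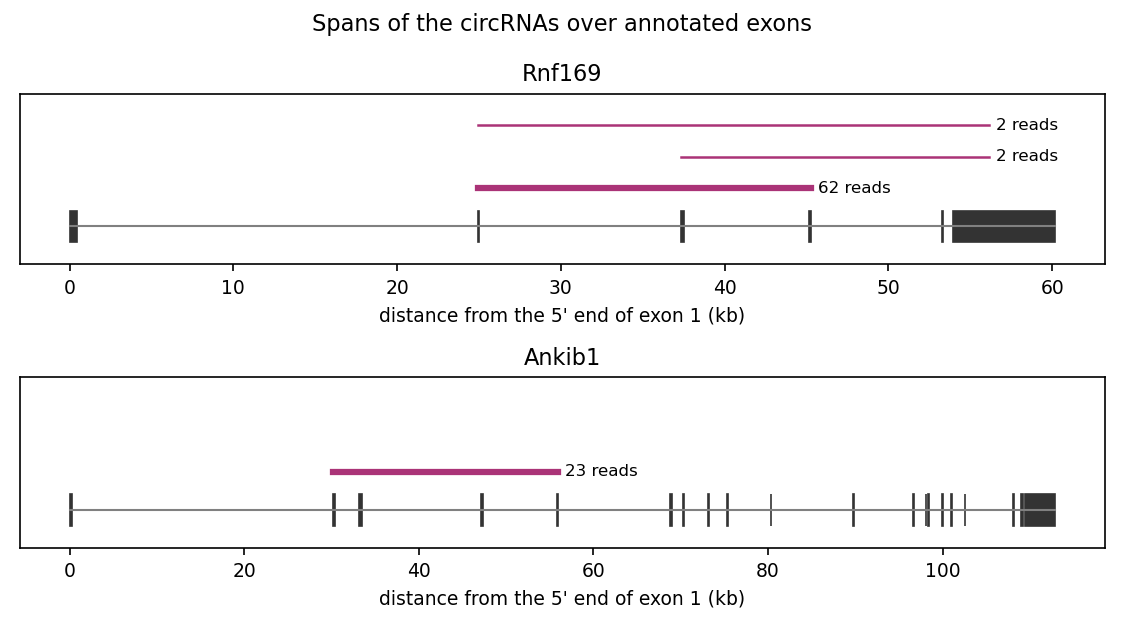
Spans of the Rnf169 and Ankib1 circRNAs (coloured lines, with back-splice reads summed over 4 libraries) above the exons of Rnf169-201 and Ankib1-201 (dark boxes), on an axis of distance from the 5′ end of exon 1 in kb. The 62-read Rnf169 span and the 23-read Ankib1 span both start at exon 2. Both 2-read spans end at a boundary that matched no exon end of Rnf169-201, drawn here as if mm9 and GRCm38 had the same spacing.

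Depth limits every value. Totals of back-splice reads ran from 1627 in sham 2 to 1982 in I/R 4, so that 1 read was worth 505 to 615 CPM (reads scaled to an equal total of back-splice reads per library). The labelled tissue was checked on marker genes that host circRNAs. Libraries are given throughout in the order sham 1, sham 2, I/R 3, I/R 4. Of 20 cardiomyocyte markers 9 hosted circRNAs, with 286, 177, 273 and 382 reads. Of 13 endothelial markers 3 did, with 16, 13, 8 and 14 reads, and 0 of 13 fibroblast and 0 of 13 leukocyte markers hosted one. The part of cell mixture in the values below was not tested, and in bulk tissue fewer cells of a type and less RNA per cell cannot be told apart.

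The leading Rnf169 circRNA was lower in I/R 4 than in the other libraries. It had 20 reads in sham 1, 16 in sham 2, 16 in I/R 3 and 10 in I/R 4, which is 10582, 9834, 8869 and 5045 CPM. The sham mean was 10208 ± 529 CPM and the I/R mean 6957 ± 2704 CPM (SD, n = 2), a ratio of 0.682. Each I/R value was lower than each sham value, and the gap between sham 2 and I/R 3 was smaller than what 2 reads are worth. Scaled by TMM factors, which correct for composition, the values were 11209, 8516, 8849 and 5513 CPM and the groups overlapped. As a share of each library's back-splice reads the circRNA took 1.06% (95% Clopper-Pearson interval 0.648 to 1.63) in sham 1 and 0.983% (0.563 to 1.59) in sham 2. It took 0.887% (0.508 to 1.44) of I/R 3 and 0.505% (0.242 to 0.926) of I/R 4. All 4 intervals share values. They reflect counting error alone and leave out the spread between libraries. Because reads lack molecular identifiers and need not be independent molecules, the intervals can also be too narrow.

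The Ankib1 circRNA was higher in I/R 4 than in the other libraries. It had 4 reads in sham 1, 3 in sham 2, 5 in I/R 3 and 11 in I/R 4, or 2116, 1844, 2772 and 5550 CPM. The sham mean was 1980 ± 193 CPM and the I/R mean 4161 ± 1965 CPM (SD, n = 2), a ratio of 2.101. The groups did not overlap with or without TMM factors, but I/R 3 stood 1 read above sham 1. Its share of back-splice reads was 0.212% (0.058 to 0.541), 0.184% (0.038 to 0.538), 0.277% (0.090 to 0.646) and 0.555% (0.277 to 0.991) in the same order, again with intervals that overlap throughout.

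**Figure D2:**
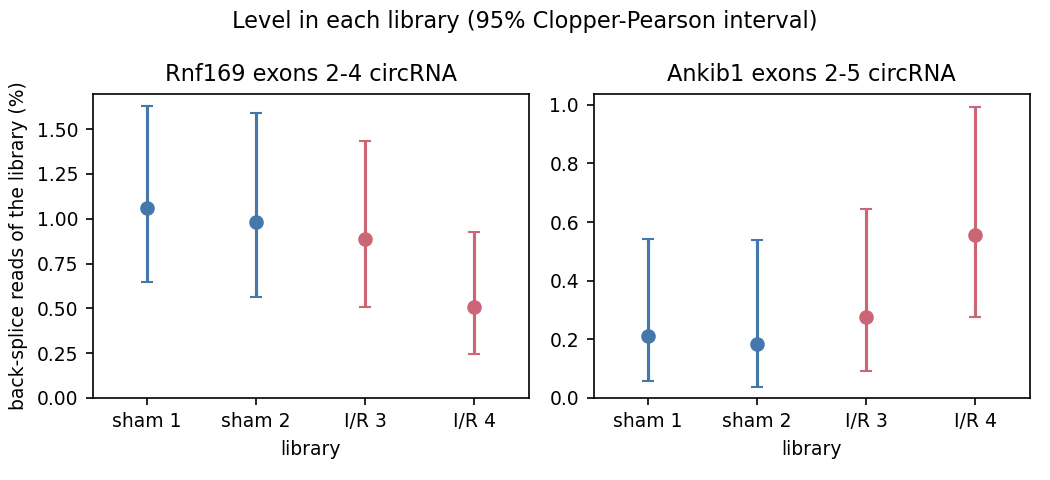
Share of each library's back-splice reads (%, vertical axis, each panel with its own scale) taken by the leading Rnf169 circRNA and the Ankib1 circRNA in the 4 libraries (horizontal axis; blue sham, red I/R; bars are 95% Clopper-Pearson intervals). I/R 4 is lowest for Rnf169 at 0.505% and highest for Ankib1 at 0.555%.

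Set against each other within a library, which needs no scaling, the leading Rnf169 circRNA had 5 reads per Ankib1 read in sham 1, 5.33 in sham 2, 3.2 in I/R 3 and 0.91 in I/R 4. The ratio was thus lowest in I/R 4, where the Ankib1 circRNA had 11 reads and the Rnf169 circRNA 10. The hosts were chosen with these counts known, so nothing is read from the ratio. Together these 2 circRNAs had 24, 19, 21 and 21 reads. The 89 reads behind the 4 circRNAs had 89 distinct read names. Those of the leading Rnf169 circRNA came from all 4 sequencing lanes in every library, and those of Ankib1 from 2, 2, 3 and 4 lanes. Without molecular identifiers, distinct names and lanes do not show that the reads are independent molecules.

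In the order of mean level the leading Rnf169 circRNA stood 13th of 1046 and the Ankib1 circRNA 53rd. Next above Rnf169 was a circRNA of Asph, a calcium-binding protein and hydroxylase gene, at 8976 ± 1430 CPM, against 8583 ± 2460 CPM for Rnf169 (SD, n = 4 libraries). The neighbours of Ankib1 (3070 ± 1698 CPM) were circRNAs of Cwf19l2 at 3132 ± 2213 CPM and Tasp1, a protease gene, at 3063 ± 1363 CPM. Neither differed from the neighbours named by more than this spread. By host gene, with all circRNAs summed, Rnf169 was 10th and Ankib1 56th of 710.

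The first comparison the design allows is that of back-splice reads in I/R against sham, fitted with edgeR's quasi-likelihood test over all circRNAs with at least 10 reads in total and a read in at least 2 libraries. Of the 4 circRNAs 2 passed this filter, the leading Rnf169 circRNA and that of Ankib1. Neither was called at an adjusted p of 0.05 (0 of 2), against 0% of the 158 tested. Before adjustment 9 of the 158 passed 0.05 in edgeR and 6 in DESeq2, which called 0 as well. The fitted log2 fold change (I/R minus sham) was -0.45 with a standard error (SE) of 0.41 for Rnf169, the 112th from the highest of 158, and 1.18 with an SE of 0.57 for Ankib1, the 24th. These SEs can lie below counting error, as that of Ankib1 does. In DESeq2 the values were -0.47 (SE 0.85) for Rnf169 and 1.18 (SE 1.285) for Ankib1. The median of all 158 edgeR values was 0.06 and the quartiles were -0.55 and 0.68. Ankib1 thus lay above the upper quartile and Rnf169 between the quartiles. Without I/R 4 the fitted value of Ankib1 was 0.45 and that of Rnf169 -0.22. Leaving out sham 1 gave -0.27 for Rnf169, leaving out sham 2 gave -0.72, and leaving out I/R 3 gave -0.94.

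Groups that do not overlap were common in this table. On the CPM scale the I/R libraries were both lower than either sham library, as for Rnf169, in 20.9% of the 158 tested circRNAs, and both higher, as for Ankib1, in 17.7%. Nothing is read from either direction, since the hosts were chosen with it known. With reads summed per host, Rnf169 had 22, 18, 16 and 10 reads (log2 fold change -0.57, SE 0.42) and Ankib1 the 4, 3, 5 and 11 of its 1 circRNA (1.22, SE 0.69). Without I/R 4 these values were -0.27 and 0.55, and without I/R 3 that of Rnf169 was -0.96. The host counts of Rnf169 differ from those of its leading circRNA only by the rarer circRNAs. These added 2 reads to each sham library, and their 0 in I/R can stand for 1 read. Of these 2 hosts 0 were called, against 0% of 153 tested, and 8 hosts passed 0.05 before adjustment in edgeR (DESeq2 called 0, with 4 before adjustment). In the authors' deposited table the log2 fold changes were -0.50 for the leading Rnf169 circRNA, 0.99 for Ankib1, and -1.18 for each of the rarer Rnf169 circRNAs. Each rarer circRNA had only 2 reads, in 1 sham library, so nothing is read from the size or sign of -1.18.

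**Figure D3:**
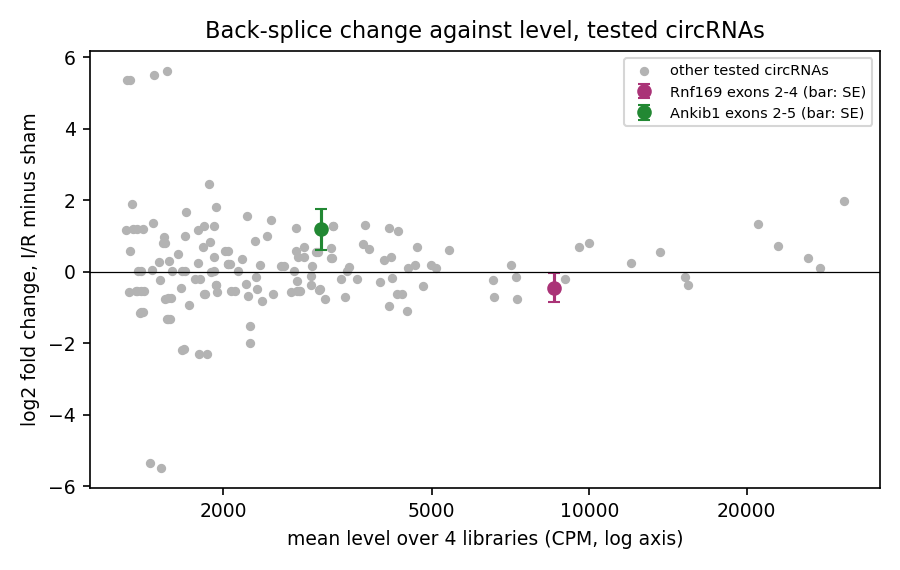
Fitted log2 fold change of back-splice reads (I/R minus sham, vertical axis) against mean level in CPM (log axis) for the 158 tested circRNAs (grey points), with the leading Rnf169 circRNA and the Ankib1 circRNA in colour (bars, SE). Rnf169 lies at -0.45 and Ankib1 at 1.18, both among points of similar level. The bars come from edgeR and can lie below counting error, as that of Ankib1 does.

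The next comparison concerned non-junction reads, which map to the same splice sites without crossing the back-splice joint. They can stem from the linear transcript or from inside a circle. At the leading Rnf169 circRNA there were 34 in sham 1, 47 in sham 2, 34 in I/R 3 and 28 in I/R 4, which averages 40.5 ± 9.19 for sham and 31 ± 4.24 for I/R (SD, n = 2). Sham 1 and I/R 3 had the same number, so the groups met. At the Ankib1 circRNA there were 32, 28, 27 and 34, which averages 30 ± 2.83 and 30.5 ± 4.95, and the groups overlapped. Both sites were thinly covered, with means over the libraries of 35.75 (82nd of 102) and 30.25 (89th), against a median of 82.4 over the 102 circRNAs listed in all 4 libraries. In edgeR's test on non-junction reads of these 102 circRNAs 0 of the 2 were called, against 8.82% of all. The log2 fold change was -0.30 (SE 0.25) for Rnf169 and 0.11 (SE 0.26) for Ankib1, with a median of -0.04 over all. With library size alone as the scale, the value of Ankib1 was -0.10 and that of Rnf169 -0.50. For Rnf169, leaving out sham 1 gave -0.51 and leaving out sham 2 gave -0.02, with -0.44 when I/R 3 was left out and -0.12 when I/R 4 was. That of Ankib1 lay between -0.02 (without I/R 4) and 0.27 (without I/R 3). At the rarer Rnf169 circRNAs there were 29 non-junction reads in sham 1 (107072806 to 107104050) and 68 in sham 2 (107072806 to 107091615). The 2 circRNAs that share the exon 2 boundary can count the same non-junction reads, so these values are not independent.

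The circular share sets the back-splice against the non-junction reads. The authors' fraction equals 2 times the junction reads over the sum of that number and the non-junction reads, within 0.0005. For the leading Rnf169 circRNA the share was 54.1% (interval 39.1 to 67.8) in sham 1 and 40.5% (26.5 to 55.0) in sham 2. I/R 3 had 48.5% (32.7 to 63.7) and I/R 4 had 41.7% (23.6 to 60.2). Sham 1 was highest and sham 2 lowest, with both I/R libraries between them. The sham mean was 47.3 ± 9.58% and the I/R mean 45.1 ± 4.82% (SD, n = 2), a difference of -2.20 percentage points that was smaller than the spread within either group and was 4.57 without sham 1 and 1.2 without I/R 4. Its mean share of 46.2% was the 7th highest of the 102 circRNAs listed in every library, whose median was 11.0%.

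For Ankib1 the share was 20% (6.04 to 41.3) in sham 1 and 17.6% (4.00 to 41.0) in sham 2. I/R 3 had 27.0% (10.02 to 49.4) and I/R 4 had 39.3% (22.8 to 56.7). The I/R shares were both higher than either sham share, as in 30.4% of the 102 circRNAs. The means were 18.8 ± 1.66% and 33.2 ± 8.67% (SD, n = 2), a difference of 14.3 percentage points, which was 8.20 without I/R 4. Its mean over all libraries, 26.0%, was 23rd of the 102. An exact permutation test of 2 libraries against 2 cannot give a two-sided p below 1 in 3 and was not run.

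The fit of back-splice relative to non-junction reads, with a term for each library, gave a log2 change of -0.16 (SE 0.38) for Rnf169 and 1.09 (SE 0.51) for Ankib1, against a median of 0.10 over the 102. Of the 2, 0 were called, against 0% of 102 (4 passed 0.05 before adjustment in edgeR, the one tool run on this ratio). For both circRNAs the SE of this fit lies below counting error, so these changes are less certain than their SEs imply. Ankib1 had the 5th highest value and Rnf169 the 63rd. For Rnf169, leaving out sham 1 gave 0.25 and leaving out sham 2 gave -0.66, with -0.41 when I/R 3 was left out and -0.04 when I/R 4 was. Without I/R 4 that of Ankib1 was 0.54.

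**Figure D4:**
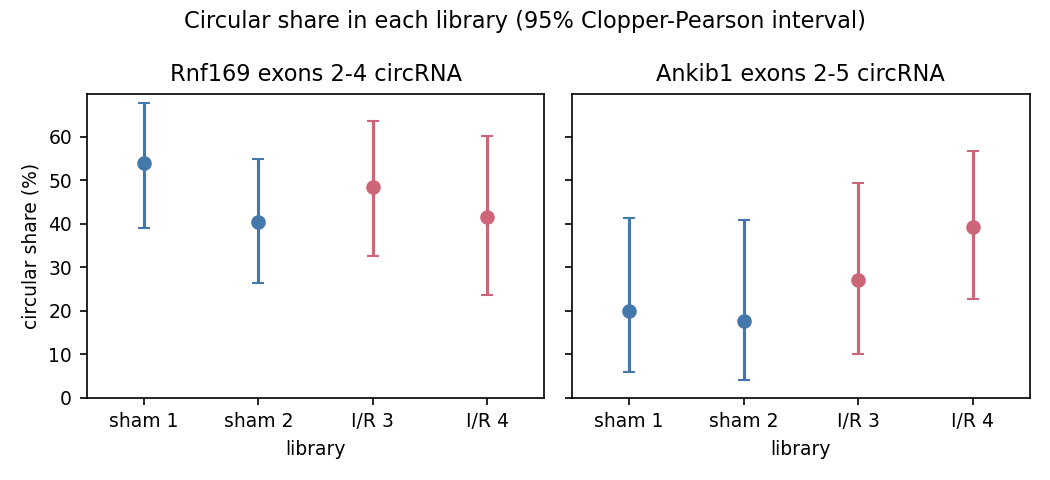
Circular share (%, vertical axis) of the leading Rnf169 circRNA and the Ankib1 circRNA in the 4 libraries (blue sham, red I/R; bars are 95% Clopper-Pearson intervals). The Rnf169 values mix between groups from 40.5% to 54.1%, and the Ankib1 values run from 17.6% in sham 2 to 39.3% in I/R 4.

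Other genes of the ubiquitin system were counted from 7 lists with 493 genes in all. They hosted 49 circRNAs with 245 reads under 40 host labels, of which Rnf169 and Ankib1 held 89. Only 5 of the 49 had enough reads to be tested, and 0 of the 5 were called, against 0% of 158. Of the 5, 4 had a fitted change above 0 and 1, that of Rnf169, below, with a median of 0.65. Of all 158, 90 were above 0 and 68 below, with a median of 0.06. Since 2 of the 5 belong to the hosts chosen on these values, the choice partly sets this count and median. Besides the leading Rnf169 circRNA and Ankib1, the tested ones were those of Ube2k, an E2 enzyme (3, 0, 5 and 3 reads; 1.35, SE 1.29), Zranb1, a deubiquitinase (0, 9, 5 and 9 reads; 0.65, SE 1.18), and Usp3, a deubiquitinase of histones (4, 3, 3 and 5 reads; 0.20, SE 0.58). In each of these 3 the groups overlapped.

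Among RBR ligases, 3 of the 15 listed names hosted circRNAs. Arih1, which works with cullin ligases, had 0, 0, 4 and 2 reads, and Rnf216 had 0, 0, 2 and 0. Both were thus listed in I/R alone, at counts where a 0 can stand for 1 read of each circRNA, and Arih1 sums 2 circRNAs. Listing in 1 group alone was common among single circRNAs, since 674 of the 1046 were listed in only 1 library. The share of hosts listed, like Arih1, in both I/R libraries and in neither sham library was not counted. In the list of ubiquitin signalling at DNA breaks, 6 of 29 names hosted circRNAs, and Rnf169 held 66 of the 98 reads. Next came Usp3 with 4, 7, 3 and 5 over 2 circRNAs and Uimc1, a reader of ubiquitin chains at breaks, with 3, 0, 2 and 0. Without Rnf169 the list had 9, 7, 9 and 7 reads, against 31, 25, 25 and 17 with it.

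HECT ligases, which like RBR ligases carry ubiquitin on a cysteine, had 0, 10, 9 and 11 reads over 11 circRNAs, among them Ube3a (0, 6, 3 and 2) and Nedd4 (0, 2, 2 and 2). The remaining RING and U-box ligases had 10, 4, 4 and 8 reads over 11 circRNAs, among them Birc2 (3, 0, 0 and 0) and Ubr3 (0, 2, 0 and 0). Cullin ligases and their receptors had 4, 2, 8 and 8 reads, led by Asb3 (0, 0, 2 and 2), Socs7 (2, 0, 0 and 2) and Fbxw7 (0, 2, 0 and 0). E1 and E2 enzymes had 3, 2, 5 and 5 reads, from Ube2k and Ube2g2 (0, 2, 0 and 2), and deubiquitinases 4, 18, 10 and 14, led by Zranb1, Usp3 and Usp48 (0, 2, 0 and 0). No other host in these lists reached the summed reads of Rnf169. Without the circRNAs of Rnf169 and Ankib1 all lists together had 26, 36, 46 and 48 reads. The library totals were 1890, 1627, 1804 and 1982, and the sums are not scaled to them. Many of the hosts had a single listing of 2 or 3 reads. A difference between the groups in these sums was not tested.

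**Figure D5:**
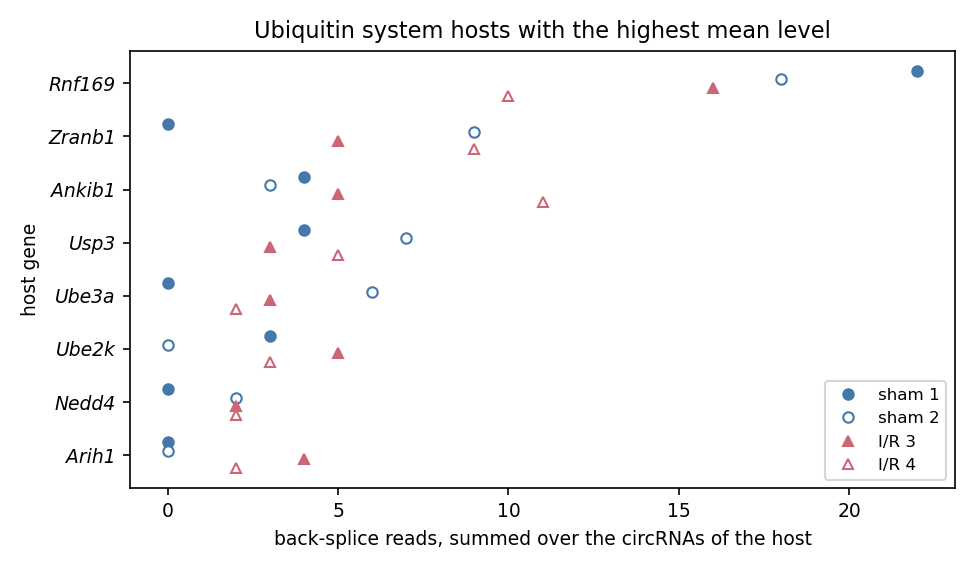
Back-splice reads per library (horizontal axis, summed over the circRNAs of a host; circles sham, triangles I/R) of the 8 ubiquitin system hosts with the highest mean level (vertical axis). Rnf169 has 10 to 22 reads, and the hosts below it have at most 11, the value of Ankib1 in I/R 4.

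The circRNAs most like these in pattern were sought among those listed in all 4 libraries with a mean level within 2-fold, by the root mean square difference in log2 CPM over the 4 libraries after each was centred on its own mean. For Ankib1 the nearest of 78 were circRNAs of Yes1, a Src-family kinase gene (5, 3, 7 and 13 reads; difference 0.18), Phf21a, a chromatin reader gene (3, 3, 4 and 8; 0.18), and Mlip, a lamin-interacting muscle protein gene (3, 2, 4 and 5; 0.32). The median difference of the 78 was 0.85. For the leading Rnf169 circRNA the nearest of 20 were those of Asph (18, 17, 16 and 14 reads; 0.24), Med13l, a Mediator subunit gene (11, 9, 7 and 8; 0.31), and a circRNA without a host label on chromosome 1 (174164084 to 174209598; 20, 10, 9 and 9; 0.35), against a median of 0.44. By host gene the nearest to Rnf169 were Med13l, Asph and Arhgap10, and those to Ankib1 Yes1, Phf21a and Insr, the insulin receptor gene. With 4 libraries that share 1 depth scale, this likeness is a description of counts.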

How the data were processed

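Total RNA of 4 heart libraries was profiled. HTSeq 0.9.1, BWA 0.7.5a-r405 and mm9 are named per the submitters' processing notes, with no role for any of them. The tool that called circRNAs was not given in the sources used here. Per the file headers the authors deposited, for each library and circRNA, the count of junction reads, the count of non-junction reads and a fraction made from both. The merged deposited count matrix differed from these files in 0 cells. The authors' deposited table of their own comparison has log2 fold changes, which are given above, and p-values and 2 score columns, which were not used. Its settings are not stated. Here limma-voom without a filter gave the same log2 fold changes, 0.99 for Ankib1 and -0.50 for the leading Rnf169 circRNA, so these are not separate evidence.

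CPM used the total of back-splice reads per library. I/R was compared with sham in edgeR 4.0.16 (R 4.3.3) by the quasi-likelihood test with TMM factors, filters of 10 reads in total and 2 libraries, and Benjamini-Hochberg adjustment at 0.05 over the whole table. The SE was taken from the F statistic and can lie below counting error. Non-junction reads, and their ratio to junction reads, were fitted over the 102 circRNAs listed in all libraries, since a circRNA missing from a library has no such value there. Alternatives were DESeq2 1.42.0, limma-voom (limma 3.58.1), other scalings and filters, and leaving out each library. The scripts were tested on simulated data. Exons were matched to GENCODE M21 by distance between boundaries, without converting coordinates. Named were all circRNAs of both hosts, the 3 most alike in pattern, and the 3 most abundant hosts of each list, of which RBR ligases had 3 in all and E1 and E2 enzymes 2. Some hosts that this rule names are not reported here, while counts include them. The members and lists were chosen with earlier results of these data known.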

Additional observations from a re-analysis of the deposited data

How the results depend on the processing

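No paired analysis was possible because the groups share no replicate number. Calls of circRNAs went from 0 to 3 with no filter on low counts and to 11 in limma-voom without a filter, and ranged from 0 to 1 without a library. For hosts there were 0 calls, 1 in each of these 2 settings, and 0 to 0 without a library. Non-junction calls went from 9 to 4 with library size only, to 3 with at least 10 junction reads and to 2 in DESeq2, and leaving out a library gave 1 (without I/R 4) to 8. Circular against non-junction calls ranged from 0 to 2 without a library, with 2 without I/R 3. Neither Rnf169 nor Ankib1 was called in any setting run. Of 66 recomputed fold changes of the pair, 63 kept their sign and 3 did not. These were the non-junction change of Ankib1, 0.11 with all libraries, at -0.096 with library size only and from -0.023 (without I/R 4) to 0.27 without a library, and the circular against non-junction change of Rnf169, -0.16 with all libraries, from -0.66 (without sham 2) to 0.25 (without sham 1). The cause was not tested. Without a library the back-splice change ranged from -0.94 to -0.22 for Rnf169 and from 0.45 to 1.52 for Ankib1, the host change from -0.96 to -0.27 and from 0.55 to 1.65, and the non-junction change of Rnf169 from -0.51 to -0.02. The difference in circular share ranged from 8.20 to 20.5 percentage points for Ankib1 and from -8.98 to 4.57 for Rnf169 without a library, and was 9.64 and -2.06 as junction over junction plus non-junction reads. Depth limits the back-splice values: the counts of the leading Rnf169 and the Ankib1 circRNA were 3 to 20 reads a library, beside 27 to 47 non-junction reads. Where a group keeps 1 library, that library is assumed to vary like the other group.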
